A study of Equus caballus with 15 samples.

Results

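Equine macrophages that received autologous conditioned serum (ACS) together with IL-1ß were compared with untreated macrophages, which gives the net state of the treated cells relative to rest. The members were chosen by treatment label: 3 ACS libraries and 3 untreated libraries, 6 of the 15 libraries of the series. Genes entered the tests when their mean over the 15 libraries reached 1 CPM (counts scaled to a common library total), which left 11628 of 16932 listed. Macrophages were grown from blood mononuclear cells of 2 horses, geldings of 3 and 5 years, over 5 days in medium with fetal bovine serum and M-CSF at 30 ng/ml. Untreated macrophages received neither IL-1ß nor an orthobiologic. In the ACS group, IL-1ß at 10 ng/ml and ACS at 25% of the culture medium were given together for 24 h. The ACS came from 3 other horses aged 2 to 5 years, so its 3 libraries replicate the product. The untreated libraries are technical replicates of the macrophages. The p-values below measure spread between libraries only, and in the 15-library model that spread is pooled over all 5 conditions. No culture received ACS without IL-1ß, so the effects of the serum and of the cytokine cannot be told apart in this comparison. Libraries with IL-1ß alone (10 ng/ml) and with IL-1ß plus 25% platelet rich plasma lysate (PRP lysate), 3 each, are given beside the results for orientation. The other 3 libraries received IL-1ß with 25% conditioned medium of mesenchymal stromal cells (MSC), and enter the filter and the model only. Treatment was followed by a wash, and the sources differ on whether the cells were cultured for a further 24 h before lysis. The titles of all 15 libraries open with the same code, whose meaning is not given, so whether the libraries came from 1 horse, both horses or a pool is not known.

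Macrophages are phagocytes that clear debris through scavenger receptors, digest it in lysosomes and release chemokines that recruit other leukocytes. IL-1ß signals through its receptor to NF-kB and MAP kinases and is a mediator of joint inflammation. ACS is serum from blood incubated to enrich cytokine antagonists, above all the IL-1 receptor antagonist, and like any serum it also carries growth factors, lipoproteins and immunoglobulins.

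The ACS libraries held 36666758 to 47894070 reads on genes and the untreated libraries 33266077 to 39155288. Pearson's r between libraries of a group, across genes and on log2(CPM + 1), was 0.988 to 0.993 for ACS and 0.982 to 0.987 for untreated. The Euclidean distance between libraries over the tested genes, on the same scale, averaged 47.4 between the groups, 30.2 within ACS and 41.0 within untreated. IL-1ß replicate 3 and PRP lysate replicate 1 lay apart from their groups, with mean distances of 93.3 within IL-1ß and 67.6 within PRP lysate, and the 5 conditions share an estimate of the spread. All 14 macrophage markers listed were tested, with a summed level of 10128 to 12670.3 CPM in the untreated and 8429 to 10518 CPM in the ACS libraries. The level of 2 of them was low, at 2.20 CPM for the integrin ITGAM and 6.25 CPM for lysozyme (LYZ) in the untreated libraries on average. Both were chosen after their values were seen. Markers of lymphocytes were present as well, with 14 T cell markers summing to 1339 to 1773 CPM untreated and 1383 to 1714 CPM with ACS. In such bulk libraries, fewer cells of a type and less RNA per cell cannot be told apart.

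A total of 43 genes were called in ACS against untreated (FDR adjusted p of at most 0.05 and at least 2-fold, limma on log2(CPM + 1)), which is 0.370% of the genes tested. Of these, 17 were higher (0.146%) and 26 lower (0.224%) with ACS. Log2 fold changes of the called genes ranged from 1.22 to 2.55 among the higher and from -2.86 to -1.03 among the lower genes, and in each of the 43 genes the 3 ACS libraries lay outside the range of the untreated libraries. Over all genes the median log2 fold change was 0.08, with quartiles of -0.10 and 0.28, and RLE size factors brought the median to 0.01. When limma was fitted to the 6 libraries of both groups alone, 130 genes were called (1.12%), 57 higher (0.490%) and 73 lower (0.628%), and all 43 genes were among them. Fitted without the 2 libraries that lay apart, the model called 133 genes, again with all 43. Every ACS library lay above every untreated library in 1895 genes (16.3%) and below in 1164 (10.0%). With RLE size factors this split turned to 1415 above (12.2%) and 1551 below (13.3%). In the text, a gene "called" passed in the 15-library model, and "called in the 6-library fit" marks those that passed there only. Genes of the latter kind were chosen after their values were seen. ± denotes SD for CPM and SE for log2 fold changes, with n = 3 libraries a group. The SE is that of the 15-library model throughout, also where the adjusted p beside it is from the 6-library fit. Such an SE and p do not belong to the same test.

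**Figure D1:**
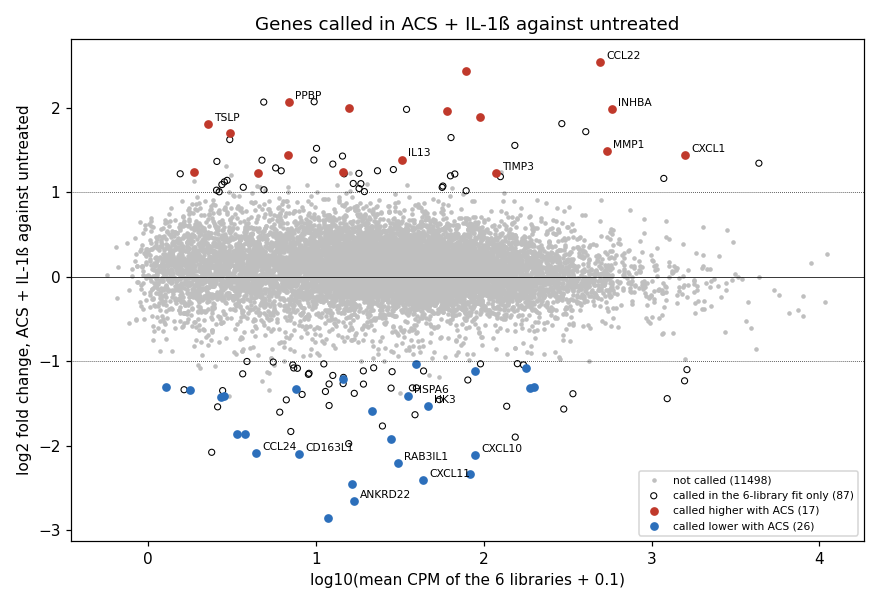
Log2 fold change of ACS with IL-1ß against untreated (y axis) by mean level of the 6 libraries (x axis, log10 of CPM + 0.1), 1 point for each of 11628 genes. Red and blue points are the 17 genes called higher and the 26 called lower, open circles the 87 genes called in the 6-library fit only, and dotted lines mark 2-fold.

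The number of calls varied with the libraries fitted. With a library left out, 10 genes were called without ACS replicate 1, 7 without ACS replicate 2, 8 without ACS replicate 3, 5 without untreated replicate 1, 8 without untreated replicate 2 and 39 without untreated replicate 3. CCL22, HK3, HSPA6, ENSECAG00000036967 and ENSECAG00000038794 were called in each of these 6 fits and in each other alternative tried. ENSECAG00000006663, chosen after its values were seen, was called in 5 of the 6 fits and TSLP in 4. Of the other 36 genes, 24 were called in 1 or 2 of these fits, for 22 of them the fit without untreated replicate 3, and 12 in none. Those 12 were ANKRD22, CCL24, MAPK13, MECR, NDUFA4L2, NLRP12, PPBP, SLAMF8, TCN1, TMEM176B, VGF and WNT1. None of the 43 genes changed direction in any alternative. Leaving out a library could not have reversed any, since the groups were apart in each of them. edgeR on the reads recovered from all 15 libraries called 21 genes, of which 19 were among the 43, and on the 6 libraries alone it called 174, among them all 43.

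Of 14 CXC and CX3C chemokines and receptors tested, 2 were called higher and 2 lower, beside 0.146% and 0.224% of all genes. In the 6-library fit 4 were called higher and 3 lower, beside 0.490% and 0.628% of all genes. Of 19 CC chemokines and receptors, 1 was called higher and 1 lower (2 and 2). CCL22, a ligand of CCR4 that attracts Th2 and regulatory T cells, had the highest log2 fold change of all genes tested on log2(CPM + 1), a scale that shrinks the changes of low genes. In edgeR on the recovered reads the log2 fold change was 2.42 for CCL22 and 3.24 for the cytokine gene TSLP, which was at a low level. CCL22 stood at 103, 132 and 213 CPM in the untreated and 836, 781 and 901 CPM in the ACS libraries. Each ACS library exceeded the highest untreated one more than 3-fold. The log2 fold change was 2.55 ± 0.29 (adjusted p = 0.00214, limma). CCL22 was at 55.5 to 114 CPM with IL-1ß alone and 460.5 to 558 CPM with PRP lysate. Its neighbour CCL17, the other CCR4 ligand, went from 152, 113 and 341 CPM to 743, 634 and 449 CPM and was called in the 6-library fit (log2 fold change 1.72 ± 0.46, adjusted p = 0.0276 there and 0.186 in the 15-library model, limma). Between them on EquCab3.0, at chr3:10321313-10332373, lies ENSECAG00000031387, to which the file gives no symbol. The study names it CX3CL1 (fractalkine, the ligand of CX3CR1). It was not counted in the chemokine lists, which were matched by symbol. It rose from 3.78, 4.60 and 8.69 CPM to 33.9, 25.5 and 16.98 CPM (2.001 ± 0.35, adjusted p = 0.0279, limma). CCL22 spans chr3:10308740-10313566 and CCL17 chr3:10345976-10357681, so ENSECAG00000031387 overlaps neither. CCL17 overlaps CIAPIN1, which was at 149.8 CPM untreated and 143 CPM with ACS on average.

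Chemokines that attract neutrophils were among the rises. CXCL1, a ligand of CXCR2, rose from 721, 627 and 1290.2 CPM to 2613, 1859 and 2432 CPM (1.45 ± 0.26, adjusted p = 0.0293, limma). The lowest ACS library stood above the highest untreated one. PPBP, the precursor of the CXCR2 ligand NAP-2 and abundant in platelets, rose from 1.23, 1.60 and 3.10 CPM to 16.1, 11.4 and 7.27 CPM (2.07 ± 0.40, adjusted p = 0.0433, limma). It was at 11.1 to 12.1 CPM with IL-1ß alone. Of 10 platelet markers listed, 4 were tested and PPBP was the only one called, beside 0.146% of all genes called higher. The summed level of the list was 38.3 to 47.5 CPM untreated and 60.5 to 64.3 CPM with ACS. The part of platelet RNA in the rise of PPBP was not tested. CXCL6 (127 and 457 CPM on average, 1.81 ± 0.43) and CXCL8, the main human neutrophil chemokine (731 and 1636 CPM, 1.16 ± 0.39), were called in the 6-library fit, with adjusted p of 0.00469 and 0.0154 (limma). CXCL1 and CXCL6 are members of a family of close paralogs, so reads may be shared between them.

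CXCL10 and CXCL11, both ligands of CXCR3, moved the other way. CXCL10, which attracts activated T cells and is induced by interferon, fell from 175, 165 and 98.8 CPM to 34.2, 31.4 and 30.5 CPM (-2.11 ± 0.30, adjusted p = 0.0123, limma). CXCL11, its neighbour on chromosome 3, fell from 100.3, 65.6 and 55.7 CPM to 12.9, 12.3 and 13.03 CPM (-2.40 ± 0.39, adjusted p = 0.0218, limma). In both, every ACS library lay below every untreated library. With IL-1ß alone they were at 32.7 to 67.4 and 24.8 to 29.7 CPM. The genes lie within the span of ART3, which was at 2.68 CPM untreated and 0.393 CPM with ACS, and the strand setting of the counting is not stated. CXCL10 and CXCL11 were the only called members among 47 interferon stimulated genes tested, beside 0.224% of all genes called lower. The median log2 fold change of that list was -0.10, with 6 members above (12.8%, beside 16.3% of all genes) and 13 below the untreated libraries (27.7%, beside 10.0%). With RLE size factors 4 lay above (8.51%, beside 12.2%) and 14 below (29.8%, beside 13.3%). CCL24, an eotaxin that attracts eosinophils, fell from 6.84, 6.95 and 8.87 CPM to 1.20, 1.11 and 0.752 CPM (-2.08 ± 0.41, adjusted p = 0.0486, limma). CCL22 and CCL24 were the called members of 19 IL-4 and IL-13 response genes tested, and they moved in opposite directions. This stands beside 0.146% of all genes called higher and 0.224% called lower. CXCL14 (9.97 and 4.39 CPM on average) and CCL14 (15.2 and 6.86 CPM) were lower and called in the 6-library fit (adjusted p = 0.0378 and 0.025, limma).

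**Figure D2:**
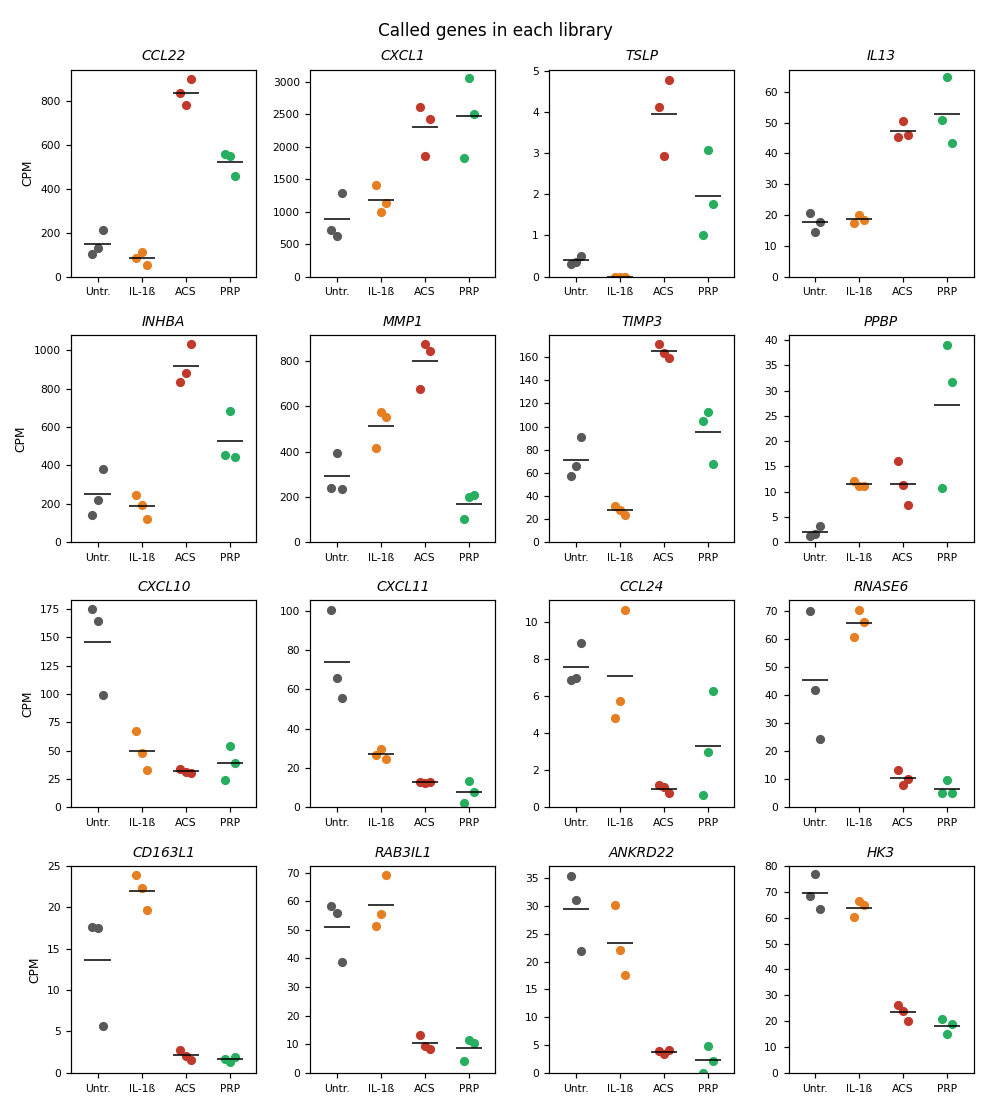
CPM (y axes, from 0) of 16 called genes in every library, with untreated, IL-1ß alone, ACS with IL-1ß and PRP lysate with IL-1ß along the x axis. Points are libraries and lines are means of 3. The ACS points lie above the untreated points in the first 8 panels and below them in the last 8, and CCL22 stood at 781 to 901 CPM with ACS against 103 to 213 CPM untreated.

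Among 27 inflammatory cytokines tested, TSLP and IL13 were called higher and none lower, beside 0.146% and 0.224% of all genes. In the 6-library fit 4 were called higher and 1 lower, beside 0.490% and 0.628%. The list's median log2 fold change was 0.28, beside 0.08 over all genes. TSLP, an epithelial cytokine that promotes type 2 immunity, rose from 0.306, 0.364 and 0.511 CPM to 4.12, 2.92 and 4.78 CPM (1.81 ± 0.24, adjusted p = 0.00673, limma). It was listed at 0 in all 3 IL-1ß libraries. IL13, the type 2 cytokine mostly made by T cells, rose from 20.6, 14.6 and 17.6 CPM to 45.3, 50.5 and 46.04 CPM (1.39 ± 0.22, adjusted p = 0.0211, limma), and stood at 17.5 to 19.9 CPM with IL-1ß alone. Its partner IL4 (3.63, 4.40 and 4.90 CPM untreated and 7.39, 9.82 and 9.44 CPM with ACS) and the Th1 cytokine IFNG (9.50, 7.40 and 12.6 CPM and 21.95, 16.7 and 22.3 CPM) showed no overlap between the groups either. Their log2 fold changes of 0.89 ± 0.21 and 0.99 ± 0.24 were under 2-fold and missed the threshold in the 15-library model (adjusted p = 0.12 and 0.12, limma). IL22, an epithelial defence cytokine (15.2 and 53.9 CPM on average), and IL31, a mediator of itch (0.883 and 4.05 CPM), were called in the 6-library fit (adjusted p = 0.0431 and 0.0418, limma). The 14 T cell markers had a median log2 fold change of 0.19 and none was called. CD3E was at 156, 140.4 and 219.5 CPM untreated and 171, 172 and 207 CPM with ACS, with overlap. The summed level of 10 NK and cytotoxic cell markers was 361 to 607 CPM untreated and 518 to 804 CPM with ACS. The part of these cells in the rise of IL13 was not tested.

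IL6, a pleiotropic inflammatory cytokine, was lower with ACS, at 34.4, 48.2 and 32.3 CPM untreated and 17.5, 10.4 and 6.01 CPM with ACS. It was called in the 6-library fit (-1.77 ± 0.51, adjusted p = 0.0155 there and 0.239 in the 15-library model, limma). TNF was at 43.2, 34.1 and 83.6 CPM untreated and 76.8, 80.1 and 81.5 CPM with ACS, with overlap. Its log2 fold change was 0.66 with a 95% interval of 0.08 to 1.25 and it was not called (adjusted p = 0.531, limma). Of the 21 IL-1 family genes tested none was called in the 15-library model. In the 6-library fit IL1B itself (9.91 to 23.2 CPM on average) and the decoy receptor IL1R2 (50.9 to 106 CPM) were called higher and the inflammasome product IL18 (10.3 to 4.21 CPM) lower. IL1RN, the IL-1 receptor antagonist for which ACS is prepared, was at 402, 285 and 481 CPM untreated and 588, 455 and 459.5 CPM with ACS. These ranges overlapped, and the 95% interval of the log2 fold change was -0.02 to 0.79. CSF3, the neutrophil growth factor, was at 4.34 CPM untreated and 15.6 CPM with ACS on average and was called in the 6-library fit (adjusted p = 0.0378, limma). Its receptor CSF3R passed the threshold (adjusted p = 0.0482, limma) at a log2 fold change of 0.90 ± 0.18, under 2-fold. CSF3R, at 323, 326 and 389 CPM untreated and 669.7, 759 and 529.9 CPM with ACS, was the only one tested of 5 neutrophil markers found in the file, out of 12 listed.

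INHBA, MMP1 and TIMP3 were also called higher. INHBA, which encodes the activin A subunit of the TGF-ß family, rose from 144, 219.7 and 383 CPM to 834, 880.2 and 1034 CPM (1.99 ± 0.37, adjusted p = 0.0332, limma). It was the only called gene of 35 TGF-ß ligands, receptors and targets, beside 0.146% of all genes called higher. MMP1, an interstitial collagenase, rose from 239.9, 394 and 236 CPM to 676, 877 and 847 CPM (1.49 ± 0.27, adjusted p = 0.0279, limma). TIMP3, an inhibitor of metalloproteinases, rose with it from 57.5, 65.6 and 91.1 CPM to 172, 164 and 159 CPM (1.22 ± 0.21, adjusted p = 0.0263, limma). Both were called out of 20 metalloproteinase and inhibitor genes, beside 0.146% of all genes called higher. The list's median log2 fold change was 0.25, beside 0.08 over all genes. TIMP3 stood at 23.5 to 31.6 CPM with IL-1ß alone, while MMP1 stood at 417 to 576 CPM there. MMP9, a gelatinase, was at 10319, 9645 and 10286 CPM untreated and 13932, 12677 and 10264 CPM with ACS, with overlap (log2 fold change 0.27 ± 0.15).

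Of 23 extracellular matrix genes, none was called in the 15-library model. In the 6-library fit FN1 (fibronectin) was higher, at 1587, 3613 and 2356 CPM untreated and 4369.5, 7534 and 6722 CPM with ACS (1.34 ± 0.43, adjusted p = 0.0347, limma). TGFBI, a TGF-ß induced adhesion protein, was lower, at 2167, 2259 and 1065 CPM and 804, 647 and 498 CPM (-1.44 ± 0.40, adjusted p = 0.0223, limma). VCAN (versican), a proteoglycan, was lower too, at 454 and 145 CPM on average. Its log2 fold change was -1.57 ± 0.71 with an adjusted p of 0.638 in the 15-library model, and the adjusted p was 0.0155 in the 6-library fit (limma). SPP1 (osteopontin), at 12068 and 9569 CPM, was not called and overlapped. The matrix list as a whole had a median log2 fold change of 0.07, close to that of all genes. ITGB8, an integrin subunit that activates latent TGF-ß (30.1 to 97.4 CPM), and LTBP1, which binds it in the matrix (1.36 to 3.75 CPM), were called higher in the 6-library fit (adjusted p = 0.0112 and 0.0393, limma).

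The remaining named rises had varied roles. TCN1, a vitamin B12 binding protein of neutrophil granules and secretions, rose from 30.4, 53.2 and 36.9 CPM to 130.3, 137 and 182 CPM (1.90 ± 0.32, adjusted p = 0.0222, limma). PARM1, a membrane mucin, rose from 2.91, 3.39 and 3.13 CPM to 9.82, 10.7 and 10.3 CPM (1.44 ± 0.22). CNN3, an actin-binding calponin, rose from 5.62, 7.60 and 11.96 CPM to 16.4, 21.5 and 23.8 CPM (1.24 ± 0.24). These groups did not overlap. DKK3, a secreted protein of the Dickkopf family, rose from 0.792, 0.308 and 0.902 CPM to 3.27, 2.69 and 2.76 CPM (1.24 ± 0.22). NDUFA4L2, a hypoxia-inducible mitochondrial protein, rose from 2.30, 2.44 and 1.92 CPM to 5.35, 7.40 and 7.10 CPM (1.23 ± 0.20). Adjusted p-values of PARM1, CNN3, DKK3 and NDUFA4L2 were 0.0161, 0.0432, 0.0267 and 0.0218 (limma). With IL-1ß alone NDUFA4L2 was at 5.75 to 8.89 CPM and PARM1 at 1.04 to 2.99 CPM. ENSECAG00000036967, a gene without a symbol at chr25:19537786-19540509, rose from 21.7, 16.5 and 34.7 CPM to 163, 121 and 111 CPM (2.43 ± 0.28, adjusted p = 0.00244, limma). It lies within the span of AKNA, which was at 139 and 161 CPM on average. CD1A1 (3.24 to 16.1 CPM), a lipid-presenting molecule of dendritic cells, and CYP27B1 (38.3 to 88.2 CPM), which activates vitamin D, were called higher in the 6-library fit. CD1A3, a paralog of CD1A1, was called lower there, at 8.27, 8.02 and 6.61 CPM untreated and 3.41, 2.79 and 3.67 CPM with ACS (-1.01 ± 0.43, adjusted p = 0.016 in the 6-library fit and 0.58 in the 15-library model, limma), and reads of the paralogs could be shared. Of 11 dendritic cell markers 7 were tested, and the summed level of the list was 811 to 1160.4 CPM untreated and 1189.6 to 1499.7 CPM with ACS. CLEC9A and CD1C were at 0 in all 6 libraries, and the part of dendritic cells in the rise of CD1A1 was not tested.

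Of 16 scavenger and macrophage surface receptors tested, CD163L1 was the only one called, beside 0.224% of all genes called lower. CD163L1, a scavenger receptor of the same family as the hemoglobin receptor CD163, fell from 17.7, 17.5 and 5.62 CPM to 2.78, 2.03 and 1.52 CPM (-2.10 ± 0.38, adjusted p = 0.0325, limma). The median log2 fold change of the list was -0.34. Of these 16, 7 lay below (43.8%, beside 10.0% of all genes) and 2 above the untreated libraries (12.5%, beside 16.3%). With RLE size factors these counts were the same, beside 13.3% and 12.2% of all genes. CD163 was at 302, 281 and 147 CPM untreated and 92.05, 58.6 and 43.2 CPM with ACS (-1.90 ± 0.39). Its adjusted p was 0.0583 in the 15-library model and 0.011 in the 6-library fit (limma). CD36, a receptor for oxidised lipoproteins, was at 185, 277 and 154 CPM and 72.2, 74.8 and 58.8 CPM, called in the 6-library fit (-1.53 ± 0.45, adjusted p = 0.00469, limma). The mannose receptor MRC1 was at 2296, 3203 and 1519 CPM untreated and 2591, 2415 and 1612 CPM with ACS, with overlap and a 95% interval of the log2 fold change of -1.09 to 0.99. Over the macrophage markers, 9 of 14 lay below (64.3%, beside 10.0% of all genes) and none above the untreated libraries, with a median log2 fold change of -0.37, and CD163 alone was called, in the 6-library fit. With RLE size factors the share below was 64.3% too, beside 13.3% of all genes. CD68 (2019 to 1631 CPM on average) and FCER1G (692 to 457 CPM) were among those 9, at log2 fold changes of -0.31 ± 0.13 and -0.58 ± 0.22.

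The deepest fall on log2(CPM + 1) belonged to ENSECAG00000038794 at chr12:23531793-23697961. It went from 29.5, 19.99 and 14.5 CPM to 2.45, 2.16 and 1.40 CPM (-2.86 ± 0.32, adjusted p = 0.00214, limma). Its neighbour ENSECAG00000017042 at chr12:23505138-23516845 fell from 40.3, 29.5 and 15.6 CPM to 5.45, 4.21 and 2.82 CPM (-2.45 ± 0.34, adjusted p = 0.0101, limma). Neither carries a symbol. Next to them on the chromosome lies MS4A7, a member of a family of membrane-spanning proteins of leukocytes. With IL-1ß alone these genes were at 35.2 to 39.1 and 36.9 to 44.1 CPM.

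ANKRD22, RAB3IL1, RNASE6, HK3 and HSPA6 were called lower, with log2 fold changes from -2.65 to -1.41. ANKRD22, an ankyrin repeat protein, fell from 35.5, 31.2 and 21.97 CPM to 3.87, 3.42 and 4.05 CPM (-2.65 ± 0.49, adjusted p = 0.0332, limma). edgeR and DESeq2 on all recovered reads did not call it. RAB3IL1, an exchange factor for Rab GTPases, fell from 58.5, 55.8 and 38.7 CPM to 13.3, 9.32 and 8.31 CPM (-2.20 ± 0.36, adjusted p = 0.0218, limma). RNASE6, an antimicrobial ribonuclease of monocytes, fell from 69.9, 41.8 and 24.4 CPM to 13.4, 7.88 and 10.3 CPM (-1.92 ± 0.37, adjusted p = 0.0413, limma). In each, the highest ACS library lay below the lowest untreated one. HK3, the hexokinase of myeloid cells, fell from 68.5, 77.03 and 63.4 CPM to 26.3, 24.1 and 20.1 CPM (-1.53 ± 0.15, adjusted p = 0.00135, limma), the lowest adjusted p of all genes. HK3 and NDUFA4L2 were the only called genes of 46 in the glycolysis and hypoxia list, and they moved in opposite directions. Of all genes, 0.146% were called higher and 0.224% lower. HSPA6, an inducible HSP70 chaperone, fell from 54.7, 47.7 and 51.6 CPM to 18.1, 21.8 and 16.5 CPM (-1.41 ± 0.15, adjusted p = 0.00214, limma). It lies within the span of ENSECAG00000013060, which was at 376 and 192 CPM on average, and reads of HSP70 paralogs or of that gene could be shared.

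Signaling genes among the falls were MAPK13 (p38 delta), from 39.2, 31.3 and 28.1 CPM to 11.6, 9.48 and 9.44 CPM (-1.59 ± 0.28), and P2RY13, an ADP receptor, from 3.06, 3.36 and 2.07 CPM to 0.491, 0.579 and 0.438 CPM (-1.34 ± 0.20). P2RY13 lies within the span of MED12L, which was at 12.2 and 22.2 CPM on average. PTPRO, a receptor tyrosine phosphatase, fell from 4.14, 6.42 and 2.83 CPM to 0.682, 1.69 and 0.710 CPM (-1.41 ± 0.27). The morphogen WNT1 fell from 5.29, 3.22 and 4.18 CPM to 0.600, 1.69 and 0.647 CPM (-1.43 ± 0.27) and was at 0.311 to 1.36 CPM with IL-1ß alone. Adjusted p-values were 0.028 for MAPK13, 0.0161 for P2RY13, 0.0432 for PTPRO and 0.0399 for WNT1 (limma). GLDN (gliomedin), from 6.40 to 0.998 CPM on average, and ENPP6, a choline phosphodiesterase, from 5.77 to 0.832 CPM, completed the named falls (adjusted p = 0.0166 and 0.0243, limma). NLRP12, a dampening NOD-like receptor, fell from 1.43, 2.72 and 2.19 CPM to 0.491, 0.0527 and 0.230 CPM (-1.30 ± 0.22, adjusted p = 0.0222, limma). It was the only called gene of 34 Toll-like receptor and inflammasome genes, beside 0.224% of all genes called lower. The list's median was -0.25, beside 0.08 over all genes. In the 6-library fit the RNA sensor TLR8 (30.2 to 13.7 CPM), the inflammasome sensor NLRC4 (5.31 to 1.81 CPM) and the pore protein GSDME (80.4 to 28.1 CPM) were also called lower.

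The called genes outside the naming rule were chosen after their values were seen. AOAH, which inactivates bacterial endotoxin, fell from 319, 275 and 213 CPM to 129, 102 and 90.2 CPM (-1.32 ± 0.22, adjusted p = 0.0218, limma). The SLAM family receptor SLAMF8 fell from 137, 118 and 109.6 CPM to 61.9, 56.5 and 48.4 CPM (-1.12 ± 0.22, adjusted p = 0.0482, limma), and was not called in 6 of the alternatives that kept every library of the groups. CD72, an inhibitory receptor of B cells and some myeloid cells, fell from 12.6, 12.2 and 8.57 CPM to 3.90, 3.42 and 4.01 CPM (-1.33 ± 0.25, adjusted p = 0.0334, limma). The summed level of 11 B and plasma cell markers in the file was 185 to 212 CPM untreated and 144 to 251 CPM with ACS, 7 of them tested and none called. VGF, a secreted neuropeptide precursor (286 to 115 CPM on average), and MECR, a reductase of mitochondrial fatty acid synthesis (242 to 114 CPM), fell as well (adjusted p = 0.0218 and 0.0432, limma). In the file, 8 of the 43 genes have an identifier only. Besides the 4 described above, ENSECAG00000041707 (1.97 ± 0.32) and ENSECAG00000029340 (1.71 ± 0.30) rose and ENSECAG00000006663 (-2.33 ± 0.30) and ENSECAG00000028530 (-1.21 ± 0.23) fell. ENSECAG00000006663, like HSPA6 within the span of ENSECAG00000013060 on chromosome 5, went from 179, 119 and 118 CPM to 35.3, 29.7 and 17.1 CPM.

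Larger gene programs had medians well under 2-fold, and in the lists of this and the next paragraph no member was called in the 15-library model. Cell cycle and DNA replication genes had a median log2 fold change of 0.32 over 70 tested, and 38 of them lay above the untreated libraries (54.3%, beside 16.3% of all genes) and 0 below. With RLE size factors 29 lay above (41.4%, beside 12.2%). TOP2A, a topoisomerase of dividing cells chosen after its values were seen, was at 119, 179 and 130.4 CPM untreated and 213, 220.4 and 269 CPM with ACS (0.72 ± 0.34, adjusted p = 0.654, limma). The highest log2 fold change of the list was 0.72. MCM6, a replicative helicase subunit, was at 209.9 and 280.1 CPM on average. Fatty acid synthesis and desaturation genes had a median of 0.36 over 21 tested, with 9 above (42.9%) and 2 below (9.52%), beside 16.3% and 10.0% of all genes. With RLE size factors 5 lay above (23.8%, beside 12.2%) and 3 below (14.3%, beside 13.3%). FASN, the fatty acid synthase, was at 267, 347 and 331 CPM and 407, 441 and 453 CPM (0.47 ± 0.26). Cholesterol synthesis genes had a median of 0.07 over 24, close to that of all genes.

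Nuclear genes of oxidative phosphorylation had a median of -0.25 over 67 tested, with 65 under 0, 29 below the untreated libraries (43.3%, beside 10.0% of all genes) and 0 above. ATP5F1B, the catalytic subunit of ATP synthase, was at 1601, 1516 and 1435 CPM untreated and 1338, 1311 and 1259 CPM with ACS (-0.22 ± 0.10). Lysosomal hydrolases, cathepsins and the proton pump had a median of -0.24 over 62 tested, with 29 below (46.8%) and 2 above. The protease legumain, LGMN, had the lowest log2 fold change of them and was at 2586, 2163 and 1874 CPM untreated and 1309.7, 1037 and 785 CPM with ACS, called in the 6-library fit (-1.10 ± 0.25, adjusted p = 0.0148, limma). CTSB (cathepsin B) was at 9298 and 6753 CPM on average (-0.46 ± 0.18) and PSAP, a precursor of sphingolipid activators, at 8421 and 6474 CPM (-0.39 ± 0.16). Genes of heme and iron handling had 9 of 22 below (40.9%) and 0 above, with a median of -0.17, and FTL (ferritin light chain) was at 3821, 3142 and 3037 CPM and 2434, 2139.7 and 1802 CPM (-0.65 ± 0.19). Fc receptor genes had 5 of 10 below (50%) and 0 above, with a median of -0.38. Complement genes had 5 of 17 below (29.4%) and 1 above (5.88%, beside 16.3% of all genes), with a median of -0.28. With RLE size factors 13.3% of all genes lay below. Shares below were 46.3% for oxidative phosphorylation, 54.8% for lysosomal, 45.5% for heme and iron, 50% for Fc receptor and 29.4% for complement genes. Cytosolic ribosomal proteins lay at a median of -0.09 over 65 tested, with 0 on either side, and NF-kB pathway genes at 0.13 over 35. NFKBIA, the feedback inhibitor of NF-kB, was at 295 and 312 CPM on average. These medians describe the lists and were not tested.

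**Figure D3:**
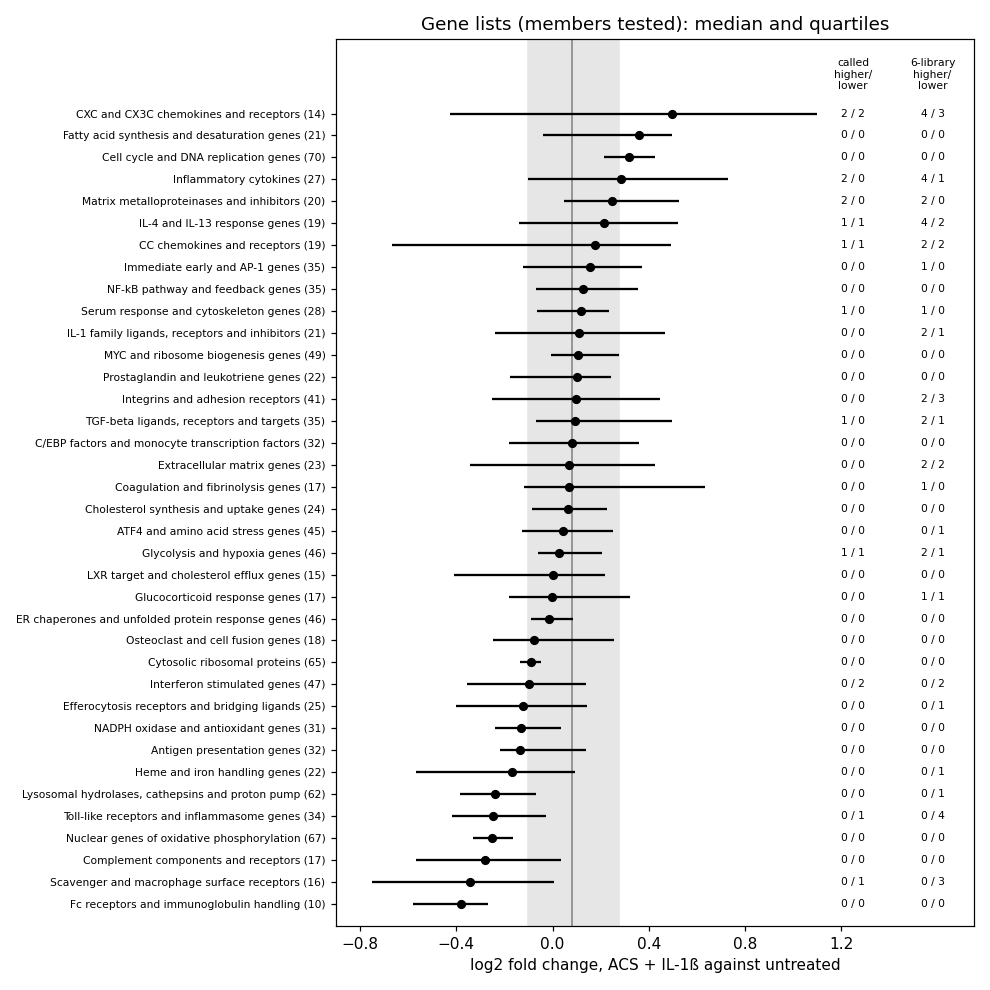
Median (points) and quartiles (bars) of the log2 fold change of ACS with IL-1ß against untreated (x axis) for each gene list (y axis, members tested in parentheses). The grey band and line are the quartiles and the median of all genes, and the columns give members called higher and lower in the 15-library model and in the 6-library fit. Chemokine lists spread widest, and cell cycle and oxidative phosphorylation lists sit to either side of the median of all genes.

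CEBPD, DDIT4 and TRIB3, which the study names for IL-1ß alone, stood near rest with ACS. CEBPD, a C/EBP transcription factor, was at 10.3, 8.33 and 8.78 CPM untreated, 8.07, 8.40 and 8.02 CPM with ACS and 49.7, 49.98 and 42.6 CPM with IL-1ß alone. The 95% interval of its log2 fold change from rest was -0.57 to 0.29. DDIT4, an inhibitor of mTORC1, was at 11.8, 10.6 and 11.3 CPM untreated, 15.4, 11.2 and 10.8 CPM with ACS and 49.01, 56.2 and 58.99 CPM with IL-1ß alone, with an interval of -0.26 to 0.51. TRIB3, a pseudokinase of the stress response, was at 16.2, 14.3 and 19.1 CPM, 19.5, 15.9 and 16.4 CPM and 58.1, 74.4 and 73.1 CPM in the same order, with an interval of -0.34 to 0.47. For these genes a change from rest of 2-fold or more lies outside the interval. ACS differed from IL-1ß alone at CEBPD, DDIT4 and TRIB3 by -2.40 ± 0.20, -2.06 ± 0.18 and -1.93 ± 0.19 on the log2 scale (adjusted p = 7.72e-05, 7.72e-05 and 0.000186, limma). A total of 257 genes were called in that comparison (2.21%), which shares the ACS libraries, and 103 to 162 when an ACS library was left out.

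CHAC1 and PSAT1, also named for IL-1ß, had wider intervals. CHAC1, a glutathione-degrading enzyme induced by ATF4, was at 1.23, 1.04 and 1.74 CPM untreated and 4.01, 3.90 and 1.32 CPM with ACS, against 10.4 to 24.3 CPM with IL-1ß alone. Its interval from rest, -0.13 to 1.59, holds both no change and a 2-fold rise. PSAT1, of serine synthesis, was at 10.2, 9.45 and 8.75 CPM and 17.6, 14.01 and 12.97 CPM with an interval of -0.16 to 1.35, and stood at 22.2 to 68.9 CPM with IL-1ß alone. GPR84 and SLAMF9 were at 0.518 to 1.37 and 0.184 to 0.480 CPM with ACS and 0.601 to 1.74 and 0.180 to 2.20 CPM untreated. Not every gene named for IL-1ß was near rest with ACS. PPBP stayed above rest and WNT1 below it, as given above. CDH5, an endothelial cadherin, was at 7.36, 8.58 and 12.7 CPM untreated and 1.66, 2.82 and 2.84 CPM with ACS and was called lower in the 6-library fit (-1.60 ± 0.34, adjusted p = 0.00757, limma). The summed level of 10 endothelial markers, 6 of them tested, was 192 to 325 CPM untreated and 126 to 159 CPM with ACS, and its part in the fall of CDH5 was not tested. EPS8, GLI1, CREB5, NR2F1, STC1 and PEAK3 were not called, with log2 fold changes of -0.08, -0.25, 0.08, -1.23, 0.41 and 0.60. HSPA5, the main chaperone of the endoplasmic reticulum, comes from the list of chaperones and not from the genes named for IL-1ß. It was at 747 to 824 CPM untreated, 689 to 834 CPM with ACS and 1062 to 2039 CPM with IL-1ß alone, with an interval from rest of -0.52 to 0.41.

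**Figure D4:**
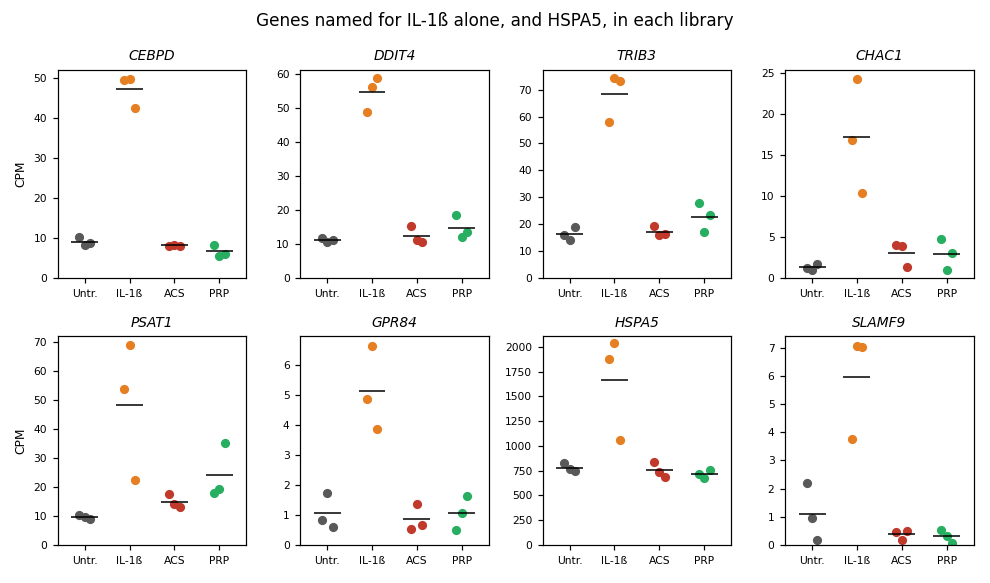
CPM (y axes, from 0) of 7 genes that the study names for IL-1ß alone and of HSPA5 in every library, with untreated, IL-1ß alone, ACS with IL-1ß and PRP lysate with IL-1ß along the x axis. Points are libraries and lines are means of 3. CEBPD stood at 8.02 to 8.40 CPM with ACS, 8.33 to 10.3 CPM untreated and 42.6 to 49.98 CPM with IL-1ß alone.

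ACS and PRP lysate, both of blood and given with IL-1ß, differed in 11 called genes (0.0946%), all higher with ACS, and in 50 without IL-1ß replicate 3 and PRP lysate replicate 1. Without ACS replicate 1 there were 7 calls and without ACS replicate 2 there were 5. Of the 43 genes of the comparison with rest, MMP1, NDUFA4L2 and TMEM176B were among these 11. For 41 of the 43 the PRP lysate mean lay on the same side of the untreated mean as the ACS mean. That count uses the same untreated libraries for both products. MMP1 was at 100.5, 197 and 209 CPM and NDUFA4L2 at 0.887, 1.53 and 0.845 CPM with PRP lysate, under their untreated levels on average, whereas both rose with ACS. The difference between the products was 2.30 ± 0.27 for MMP1 and 1.87 ± 0.20 for NDUFA4L2 on the log2 scale (adjusted p = 0.00264 and 0.00187, limma). TMEM176B, a cation channel of myeloid cells chosen after its values were seen, fell from 61.7, 49.4 and 49.8 CPM at rest to 25.7, 27.6 and 23.5 CPM with ACS and stood at 9.32, 8.73 and 11.4 CPM with PRP lysate (difference 1.30 ± 0.19, adjusted p = 0.0133, limma). CD163, at 7.34 to 13.4 CPM with PRP lysate, was higher with ACS as well (2.39 ± 0.39, adjusted p = 0.0347, limma). For CCL22 the difference was 0.68 ± 0.29, for CXCL10 -0.22 ± 0.30 and for HK3 0.35 ± 0.15, and none of these was called (adjusted p = 0.842, 0.845 and 0.842, limma). Their 95% intervals were 0.06 to 1.31, -0.87 to 0.44 and 0.03 to 0.67.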

How the data were processed

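The authors deposited CPM per gene for 16932 genes, made from poly(A) RNA (TruSeq) by trimming at a Phred score of 20, STAR 2.7.3 on EquCab3.0 and HTSeq. STAR's version follows the submitters' processing notes. The strand setting is not stated. All 15 columns were matched to samples by their headers and 0 were left unused. The labels of the ACS libraries carry no replicate number, so their replicates are numbered here in the order of the columns. The members, lists and named genes were chosen with earlier results of these data known.

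Genes whose mean reached 1 CPM entered limma 3.58.1 (R 4.3.3) with an intensity trend on log2(CPM + 1), a pseudocount that shrinks the fold changes of low genes. All 15 libraries and 5 conditions shared a model, with Benjamini-Hochberg adjustment over all genes. Division by the value of 1 read gave whole reads (within 0.1) for 99.7% of values. On these reads edgeR 4.0.16 called 21 of 13675 genes tested and DESeq2 1.42.0 called 116. Counts per library were 28410733 to 47894070, and 1 read equals 0.0209 to 0.0352 CPM, which limits the precision of genes near 1 CPM. Alternatives were the pseudocount, the filter, RLE and TMM factors, the libraries fitted, no fold threshold, the count models, and leaving out each ACS and untreated library. Steps were tested on simulated data.

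Named genes are, of called genes with a symbol, the 15 that rose and the 15 that fell most with groups apart, up to 2 identifiers a direction, called or abundant list members, and genes the study names for ACS and IL-1ß. Others are marked as chosen after their values were seen. Lists came from general knowledge and carry no test. Gene sequences were not used here. Python 3.11.15 and matplotlib 3.10.9 were used.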

Additional observations from a re-analysis of the deposited data

Results flagged for a closer look

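At 3 genes called in ACS against untreated, the effect of ACS differed from that of PRP lysate in the direct comparison of the products (limma): by 2.30 on the log2 scale for MMP1, by 1.87 for NDUFA4L2 and by 1.30 for TMEM176B, each higher with ACS in 3 of 3 libraries. PRP lysate replicate 1 lay apart from its group. Against untreated, MMP1 was called in 1 of the 6 fits that left out a library, and NDUFA4L2 and TMEM176B in 0. edgeR on all 15 libraries called none of these genes against untreated, and with RLE size factors TMEM176B was not called.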

How the results depend on the processing

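Of 43 calls, 17 higher and 26 lower with ACS, no filter gave 17 lower, a minimum of 5 CPM 11 higher, and pseudocount 0.1, RLE, TMM, no fold threshold and the 12 libraries without IL-1ß 35 to 55 in all. The 6 libraries alone gave 130 (57 higher, 73 lower), and 13 libraries without IL-1ß replicate 3 and PRP lysate replicate 1, chosen after seeing the data, 133 (57 and 76). edgeR called 21 (5 and 16), DESeq2 116 (38 and 78) and edgeR on the 6 libraries, also added later, 174 (58 and 116). Leaving out a library gave 5 to 39 calls, 2 to 17 higher and 3 to 22 lower. The cause was not tested. ACS against IL-1ß (257 calls) gave 401 with no fold threshold, 574 with DESeq2, and 103 to 235 with a library left out. ACS against PRP lysate (11 calls) gave 27 without IL-1ß, 57 with DESeq2, 50 in the 13 libraries, and 5 to 9 with a library left out.

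None of the 43 genes changed direction in any alternative, which leaving out a library could not have done, since the groups were apart in each. No paired analysis was possible because the labels of the ACS libraries carry no replicate number to pair with the untreated ones. Depth limits the precision of genes near 1 CPM.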
